A study of Gallus gallus with 6 samples.

Results

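The genes described here encode the peroxisome proliferator-activated receptors (PPARA, PPARD and PPARG), 2 of their retinoid X receptor partners (RXRA and RXRG), the PGC-1 coactivators (PPARGC1A and PPARGC1B) and the estrogen-related receptor gamma (ESRRG). They were chosen by gene name, and all 8 were found among the 20943 genes of the deposited table. RNA came from the pectoralis major, the breast muscle, of female broilers aged 35 days. All birds ate the same basal diet, which was supplemented with 0 IU/kg of vitamin E for the 3 control libraries and with 100 IU/kg, given as DL-α-tocopheryl acetate, for the other 3. Nothing in the labels ties each of the 3 tissue samples of a group to a bird of its own, so the p-values cover the spread between samples, which may be partly technical.

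PPARs are nuclear receptors that bind fatty acids and their derivatives, pair with an RXR on DNA, and switch on genes for the uptake, storage and oxidation of fat. In mammals PPARD is the form most tied to fat oxidation in skeletal muscle, PPARA to that in liver and heart, and PPARG to the formation of fat cells. PGC-1 proteins bind no DNA themselves. They dock on PPARs and on estrogen-related receptors such as ESRRG, and raise the transcription of mitochondrial and fat oxidation genes. The deposited annotation gives the receptors nuclear receptor domains (a C4 zinc finger, a hormone receptor domain or the PPARγ N-terminal domain) and both coactivators an RNA recognition motif.

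Expression was given as FPKM, the fragments per kilobase of gene, scaled by library size, so levels of different genes can be set side by side. The read totals behind the FPKM, inferred from the values themselves, ran from 14161399 (vitamin E replicate 1) to 25477341 (control replicate 1). Every vitamin E total was below every control total. The first principal component (38.4% of the variance) set control replicate 1 apart, with a score of -34.4 against scores from -14.2 to 17.4 for the other 5. On it every vitamin E library (8.75 to 17.4) also scored above every control (-34.4 to 5.87). Of 10 listed fast fibre markers 9 were in the table and summed to between 47989 and 66433 FPKM, of which the skeletal actin gene ACTA1 held between 22897 and 37440, while PVALB stayed between 0.167 and 0.649 FPKM. The 9 slow fibre markers in the table summed to between 5764 and 10580 FPKM, nearly all of it from the troponin gene TNNC1 at 5693 to 10540 FPKM. MYOZ2, TNNI1, ATP2A2 and CSRP3 lay between 0.975 and 43.0 FPKM, MYH7B between 0.112 and 0.554, and MYH7, MYL2 and MYL3 were each at 0 in at least 1 library. Blood vessel, leukocyte and fibroblast markers were present too, so the receptor levels are those of the whole tissue, in which fewer cells of a type and less RNA per cell cannot be told apart.

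RXRA was the most abundant of the 8 genes in every library, with a mean of 10.05 FPKM over all 6. PPARD and ESRRG followed at 3.36 and 3.26 FPKM, then PPARG and PPARA at 2.41 and 2.24, PPARGC1B and PPARGC1A at 1.25 and 1.22, and RXRG at 0.357 FPKM. The range of RXRA lay above that of PPARD, and the range of PPARA above that of PPARGC1B. The other neighbours in this order overlapped, and PPARD exceeded ESRRG in 4 of 6 libraries, PPARG exceeded PPARA in 4 and PPARGC1B exceeded PPARGC1A in 4. RXRA was thus the only member above 5 FPKM on average, and 79.7% of all genes in the table had a lower mean than it. Gene lengths implied by the FPKM steps ran from 1361 bases for ESRRG to 9981 bases for PPARGC1B, so equal FPKM rest on unequal numbers of reads. The reads behind the values ranged from 6 for RXRG in vitamin E replicate 1 to 1537 for RXRA in control replicate 2.

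With vitamin E, PPARD and PPARGC1B stood above the control level in all 3 libraries, RXRA had a lower mean with overlapping groups, and the means of PPARA and ESRRG were nearly equal in both groups. None of these differences passed the test, which was limma on log2(FPKM + 1) with Benjamini-Hochberg adjustment over all 11320 genes that had a mean of at least 1 FPKM. That filter kept 7 of the 8 members and left out RXRG, whose mean was under 1 FPKM in each group. The control mean of PPARGC1B, 0.963 FPKM, was also under 1 FPKM, and this gene passed the filter through its vitamin E mean of 1.54 FPKM. With no filter on low values, limma gave PPARGC1B an unadjusted p of 0.0335 and an adjusted p of 0.671. At an adjusted p of 0.05 limma called 0 of the 7 members and 0% of all tested genes, and voom on recovered reads called 0 members and 2 genes in all. At an unadjusted p under 0.05 there were 2 members, both higher with vitamin E, where 9.11% of all tested genes reached that level (676 genes, or 5.97%, higher and 355, or 3.14%, lower). That background moved with single libraries, to 942 higher and 614 lower without control replicate 2, 442 and 413 without control replicate 3, and 441 and 258 without vitamin E replicate 2, and it was 597 and 439 after TMM-type scaling. Groups that did not overlap were found in the same 2 members, against 14.6% of all tested genes (8.86% higher and 5.72% lower with vitamin E). The members were chosen with such results known, so these counts describe them and carry no test of the group.

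**Figure D1:**
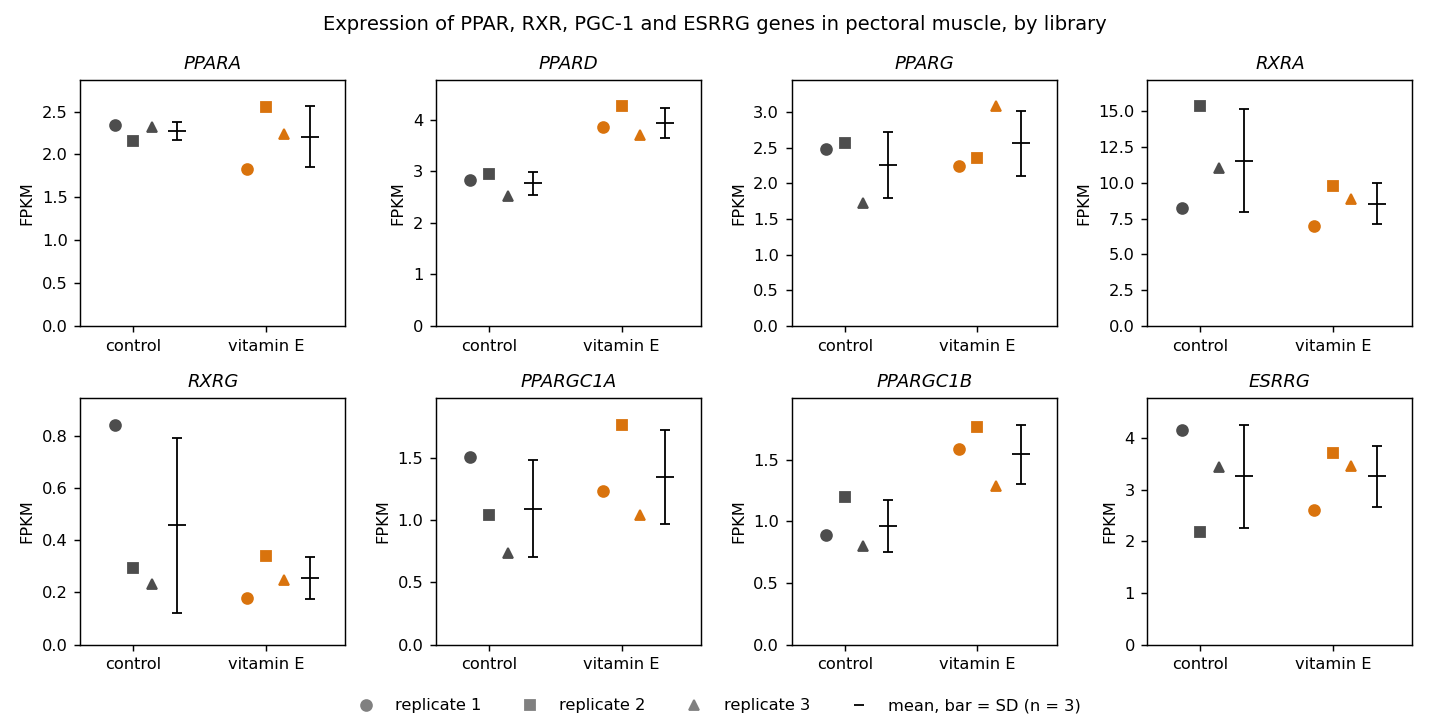
FPKM of each of the 8 genes (y axis, from 0) in the 3 control libraries (grey) and the 3 vitamin E libraries (orange), with the group mean and SD (n = 3) beside the points. In PPARD and PPARGC1B all vitamin E points lie above all control points, and in the other 6 genes the groups overlap.

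PPARD (chromosome 26, 4089638 to 4106338, minus strand) encodes the receptor that drives fat oxidation in mammalian muscle. It measured 2.84, 2.94 and 2.52 FPKM in control replicates 1 to 3 and 3.85, 4.27 and 3.71 FPKM in vitamin E replicates 1 to 3. The lowest vitamin E library therefore lay above the highest control, and no library stood far from its group. Group means were 2.77 ± 0.218 and 3.94 ± 0.289 FPKM (SD, n = 3), a ratio of 1.42, and between 187 and 330 reads supported each value. The log2 difference was 0.39 ± 0.11 (SE), with a 95% interval from 0.12 to 0.66, an unadjusted p of 0.0102 and an adjusted p of 0.394 in limma. It ranked number 293 of all tested genes by p. The added 1 in log2(FPKM + 1) shrinks the change of such low genes, and on reads recovered from the FPKM steps (voom) the difference was 0.51, with an interval from 0.17 to 0.84 and an adjusted p of 0.380. Replicates varied by 7.89% in controls and 7.32% with vitamin E, close to the 6.51% and 6.15% that the counting of reads alone gives.

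PPARA (chromosome 1, 71328993 to 71369428, plus strand), the receptor best known for the fasting response of liver, gave the smallest spread of the 8 genes among controls. Its values were 2.34, 2.15 and 2.32 FPKM in controls and 1.84, 2.55 and 2.23 FPKM with vitamin E. Both the lowest and the highest value were in vitamin E libraries, so the vitamin E range enclosed that of the controls. Means were 2.27 ± 0.104 and 2.21 ± 0.357 FPKM (SD, n = 3), and the log2 difference of -0.036 ± 0.13 (SE; 95% interval from -0.34 to 0.27) had an adjusted p of 0.958. The interval leaves room for a ratio of FPKM + 1 between 0.789 and 1.21. A protein-coding gene without a symbol overlaps its start on the opposite strand, at a mean of 0.0557 FPKM.

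PPARG (chromosome 12, 4829225 to 4882889, plus strand) encodes the master regulator of fat cell formation. It measured 2.48, 2.56 and 1.72 FPKM in controls and 2.25, 2.35 and 3.08 FPKM with vitamin E. Control replicate 3 was the lowest and vitamin E replicate 3 the highest, while the other 4 libraries lay together between 2.25 and 2.56 FPKM. The difference in means, 2.26 ± 0.464 against 2.56 ± 0.455 FPKM (SD, n = 3), was smaller than either SD, and the adjusted p was 0.841. Its 95% interval ran from -0.25 to 0.51 on the log2 scale. Without control replicate 3 the log2 difference went from 0.13 to 0.0074, and without vitamin E replicate 3 to 0.029, so it rested on those libraries.

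Within a library the PPAR genes can be compared as shares of their summed FPKM, which no single scaling factor per library can alter. PPARD took 37.0%, 38.4% and 38.4% of that sum in controls and 48.5%, 46.6% and 41.1% with vitamin E. The share was higher in every vitamin E library than in any control, with means of 37.9 ± 0.801% and 45.4 ± 3.85% (SD, n = 3). PPARA took correspondingly less, between 28.1% and 35.4% in controls and between 23.1% and 27.8% with vitamin E, with almost level neighbouring values, and PPARG overlapped at 26.2% to 33.5% and 25.6% to 34.1%. The summed level of the PPAR genes was 7.30 ± 0.633 FPKM (SD) without and 8.71 ± 0.673 FPKM with the supplement, and here too the groups did not overlap. An exact two-sided permutation test gave p = 0.1 for the PPARD share, the PPARA share and the sum, the smallest that 3 against 3 libraries allow, and p = 0.9 for the PPARG share. The sum and every share include PPARD, whose groups did not overlap, while those of PPARA by itself did. These measures are therefore not separate results from that of PPARD.

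**Figure D2:**
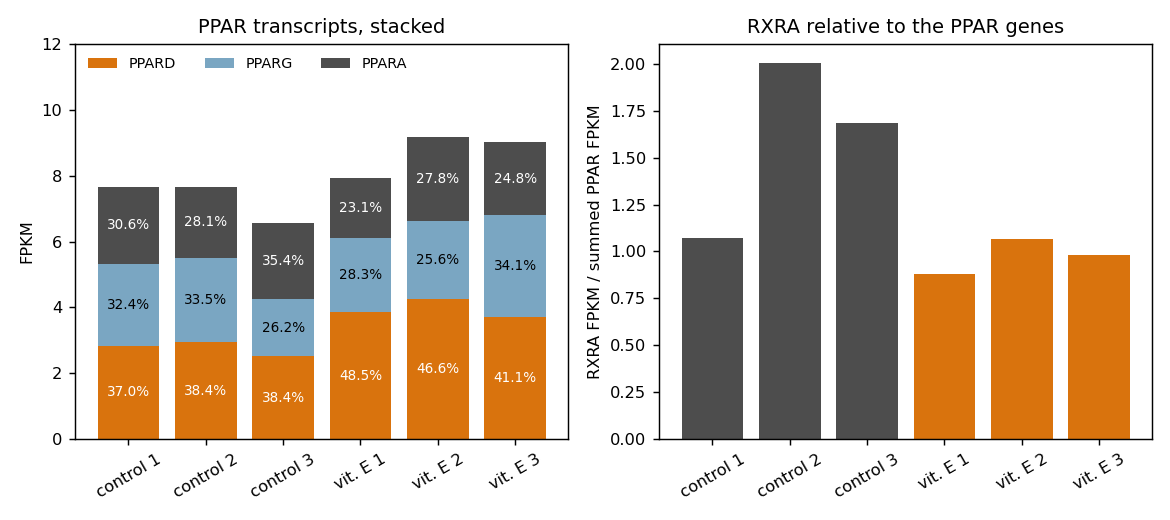
Left, FPKM of PPARD, PPARG and PPARA stacked for each library, with each gene's percent of the stack; right, RXRA FPKM divided by that sum (bars start at 0, 1 bar per library). The PPARD share lies between 37.0% and 38.4% in controls and between 41.1% and 48.5% with vitamin E, and the RXRA ratio is 0.881 to 1.07 in vitamin E libraries.

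RXRA (chromosome 17, 7753182 to 7831345, plus strand) is the partner with which PPARs bind DNA, and it also serves thyroid hormone, vitamin D and retinoic acid receptors. It measured 8.22, 15.4 and 11.1 FPKM in controls and 6.99, 9.78 and 8.86 FPKM with vitamin E. Control replicate 2 was far above the rest, and control replicate 1 lay inside the vitamin E range, so the groups overlapped. Means were 11.5 ± 3.60 and 8.55 ± 1.42 FPKM (SD, n = 3). The log2 difference was -0.37 ± 0.22 (SE), with a 95% interval from -0.89 to 0.16 and an adjusted p of 0.665. It was -0.16 without control replicate 2 and -0.57 without control replicate 1, where the unadjusted p was 0.0234 and the adjusted p 0.541. Replicate spread in controls was 31.1%, against 2.85% from the counting of reads. A noncoding gene on the opposite strand lies within it, at a mean of 0.204 FPKM. Set against the summed PPAR transcripts of the same library, RXRA stood at 1.07, 2.01 and 1.68 in controls and at 0.881, 1.07 and 0.982 with vitamin E. By this ratio every vitamin E library lay below every control, though control replicate 1 and vitamin E replicate 2 were almost level. The sum in the ratio includes PPARD, whose groups did not overlap, while those of RXRA by itself did. The ratio is therefore not a separate result for RXRA.

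RXRG (chromosome 8, 5144981 to 5168139, plus strand), the form that mammals express mainly in muscle and brain, had the fewest reads of the 8 genes. Its values were 0.845, 0.294 and 0.234 FPKM in controls and 0.179, 0.341 and 0.248 FPKM with vitamin E, from 51, 12, 9, 6, 12 and 9 reads. Control replicate 1 was more than any other library, and the other 5 overlapped between 0.179 and 0.341 FPKM. The same library had 8.22 FPKM of the muscle LIM protein gene CSRP3, a slow fibre marker, where the other 5 had between 0.975 and 1.52 FPKM. Other fibre markers went both ways in that library. The slow markers MYOZ2 (43.0 FPKM against 12.1 to 20.9 in the others) and ATP2A2 (12.3 against 7.29 to 10.2) were also highest there. The slow marker TNNC1 was lowest there, at 5693 FPKM against 9069 to 10540 in the others. So was the slow list sum, nearly all of it TNNC1, at 5764 against 9095 to 10580 FPKM. Fast markers went both ways too. The fast myosin gene MYH1A was at 962 against 79.3 to 168 FPKM, and MYH1B and ATP2A1 were also highest there. The fast troponin genes TNNI2 (905 FPKM against at least 1047 in the others) and TNNT3 (12848 against at least 13097) were lowest there. The part of that library's fibre makeup in the RXRG value was not tested. With no filter on low values, limma gave RXRG a log2 difference of -0.19 (95% interval from -0.58 to 0.19, adjusted p = 0.822). RXRG made up 9.32% of the FPKM of RXRA and RXRG in control replicate 1 and between 1.88% and 3.37% in the others.

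PPARGC1B (chromosome 13, 8370421 to 8416035, minus strand) encodes PGC-1β, a coactivator tied in mammals to the basal content of mitochondria. It measured 0.893, 1.20 and 0.796 FPKM in controls and 1.58, 1.76 and 1.28 FPKM with vitamin E. The groups did not overlap, but the lowest vitamin E library and the highest control were only 1.28 and 1.20 FPKM. Means were 0.963 ± 0.211 and 1.54 ± 0.242 FPKM (SD, n = 3), a ratio of 1.60, which is the largest ratio among the members. On the log2(FPKM + 1) scale the difference was 0.38 ± 0.15 (SE), with a 95% interval from 0.024 to 0.73, an unadjusted p of 0.0394 and an adjusted p of 0.526. The recovered reads, between 129 and 261 per library, gave a log2 difference of 0.69 with voom, an interval from 0.21 to 1.17 and an adjusted p of 0.400. The unadjusted p stayed under 0.05 without control replicate 2 or vitamin E replicate 3 and passed it without any 1 of the other 4 libraries.

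PPARGC1A (chromosome 4, 74250323 to 74596901, plus strand) encodes PGC-1α, the coactivator that exercise, cold and fasting induce in mammalian muscle. It measured 1.50, 1.04 and 0.733 FPKM in controls and 1.23, 1.77 and 1.04 FPKM with vitamin E. The controls spanned a wider range than the distance between the group means, and control replicate 1 lay above 2 of the 3 vitamin E libraries. Means were 1.09 ± 0.388 and 1.35 ± 0.378 FPKM (SD, n = 3; adjusted p = 0.828), and the 95% interval of the log2 difference ran from -0.28 to 0.62. A difference as large as that of PPARGC1B lies inside this interval. The log2 difference went from 0.17 to 0.040 without control replicate 3 and to 0.043 without vitamin E replicate 2. The level of PPARGC1B relative to PPARGC1A was 0.594, 1.15 and 1.09 in controls and 1.29, 0.997 and 1.24 with vitamin E, which overlap. Whether the coactivators differed from each other in their response was thus not shown.

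ESRRG (chromosome 3, 20241793 to 20358377, plus strand) encodes a receptor that in mice drives oxidative metabolism and capillary growth in muscle, and that PGC-1 proteins coactivate. It measured 4.15, 2.18 and 3.44 FPKM in controls and 2.59, 3.71 and 3.46 FPKM with vitamin E. Both extremes were controls, so their range enclosed that of the vitamin E libraries. Both group means rounded to 3.26 FPKM, with SDs of 1.00 and 0.587 (n = 3), and the log2 difference was 0.019 ± 0.20 (SE; 95% interval from -0.46 to 0.50, adjusted p = 0.992). Its sign turned with each of 3 rescalings (TMM-type, by median ratio, and quantile). This receptor had between 50 and 144 reads per library, and counting alone gives a spread of 11.5% in controls where 30.7% was seen.

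**Figure D3:**
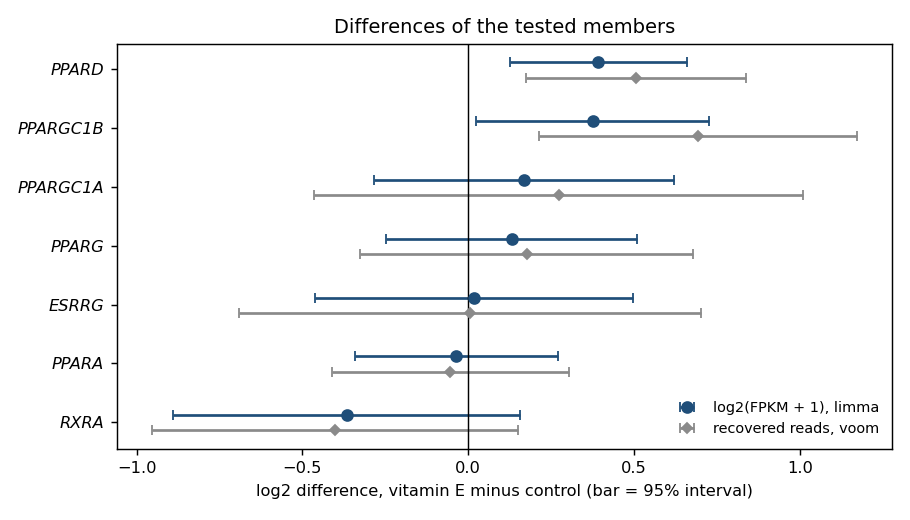
Log2 difference (vitamin E minus control, x axis) of the 7 tested members with 95% intervals, from limma on log2(FPKM + 1) (circles) and from voom on recovered reads (diamonds). Only the intervals of PPARD and PPARGC1B lie above 0 in both fits, and no member passed after adjustment over all tested genes.

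The members did not vary as a block from library to library. PPARD and PPARGC1B had the same order of the 6 libraries, highest in vitamin E replicate 2 and lowest in control replicate 3. PPARGC1A was also highest and lowest in those same libraries, but its control replicate 1 lay 0.19 above the gene mean on the log2 scale, where PPARD and PPARGC1B lay 0.17 and 0.23 below it. RXRA and ESRRG went opposite ways in control replicate 2, at 0.61 above and 0.40 below their means, and both were low in vitamin E replicate 1. Over the 6 libraries RXRA varied most, with an SD of 0.36 on the log2(FPKM + 1) scale, followed by ESRRG at 0.26, and PPARA least at 0.11.

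**Figure D4:**
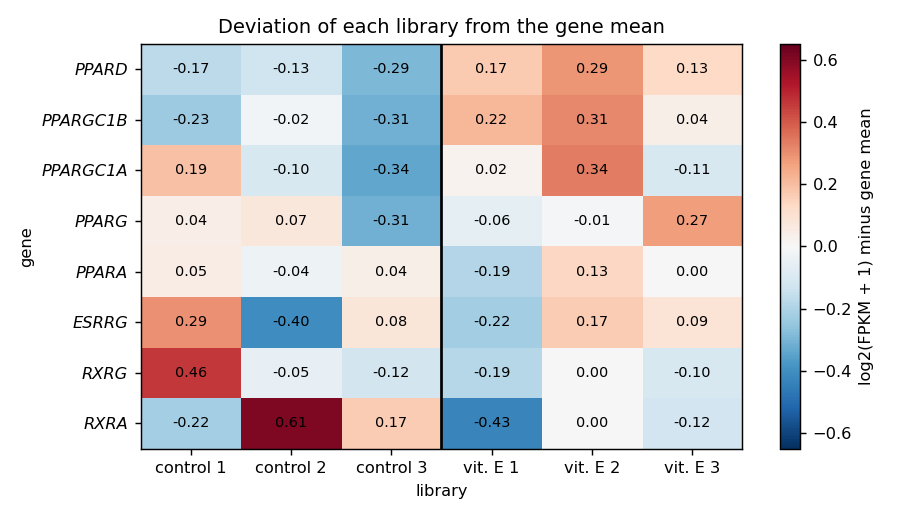
Deviation of each library (columns) from the mean of each gene (rows) on the log2(FPKM + 1) scale, red above and blue below. PPARD and PPARGC1B are below their mean in all 3 controls and above it in all 3 vitamin E libraries, while RXRA is highest in control replicate 2 (0.61) and lowest in vitamin E replicate 1 (-0.43).

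For RXRA and ESRRG, the tested members that varied most, the closest profiles among 9940 tested genes with a symbol were sought by the root mean square difference of the centred log2(FPKM + 1) values over 6 libraries. Nearest to RXRA were TMEM8C, the muscle fusion protein myomaker, at 0.12, the thyroid hormone activating enzyme gene DIO2 at 0.13 and the cysteine synthesis gene CTH at 0.13, against an SD of 0.36 for RXRA itself. DIO2 measured 2.33, 4.06 and 2.40 FPKM in controls and 1.51, 2.22 and 1.72 FPKM with vitamin E, so its peak too was in control replicate 2. Among the nearest to ESRRG were MPZL1, which encodes a membrane protein zero-like protein, at 0.048, and the fatty acid transport protein gene SLC27A4 at 0.054. SLC27A4 measured 6.88, 4.12 and 5.85 FPKM in controls and 4.63, 6.14 and 5.36 FPKM with vitamin E. These genes were selected as the closest of many, and the distances describe them only.

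The summed markers of adipocytes and of fibroblasts were higher in every vitamin E library than in any control, as PPARD and PPARGC1B were, while limma called 0 single markers of any cell type after adjustment. The 5 adipocyte markers ADIPOQ, PLIN1, FABP4, CIDEC and LPL summed to between 140 and 224 FPKM in controls and between 240 and 372 FPKM with vitamin E, and none was at 0. FABP4 made up most of this sum, and each of the 5 markers by itself overlapped between the groups. All 5 are also among the listed PPAR targets described below, so the marker sum and that list are not separate observations. The 5 fibroblast markers summed to between 866 and 1085 FPKM in controls and between 1235 and 1588 with vitamin E, where COL1A1, COL1A2 and DCN did not overlap and none was at 0. For COL1A1 the highest control and the lowest vitamin E library were almost level, at 117.6 and 117.9 FPKM. Of all tested genes 8.86% were higher and 5.72% lower without overlap. Endothelial markers summed to between 124 and 175 FPKM and between 147 and 199, and the 4 leukocyte markers in the table to between 444 and 870 and between 602 and 781, with no marker at 0 and overlapping groups. The 3 satellite cell markers summed to between 18.1 and 24.7 FPKM and between 17.7 and 39.0. Other markers separated the groups in the opposite direction, with every vitamin E library below every control. They were the satellite cell gene PAX7 (means of 4.70 and 3.04 FPKM in controls and with vitamin E) and the fast fibre genes TNNC2 (6268 and 5503) and MYH1A (418 and 81.7). The summed fast and slow markers overlapped. The other satellite cell markers had higher means with vitamin E and overlapping groups, MYF5 at 15.4 and 24.5 FPKM and CALCR at 0.327 and 0.361 FPKM. The control mean of MYH1A rested largely on replicate 1, at 962 FPKM. Its other controls were at 125 and 168 FPKM, and its vitamin E libraries between 79.3 and 85.2 FPKM. The part of these cell types in the receptor differences was not tested.

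Among genes that PPARs control in mammals, CD36, DECR1 and PDK4 had the smallest p values, all with higher levels in the vitamin E libraries. Of 29 listed targets 22 were tested, and limma called 0 after adjustment. At an unadjusted p under 0.05 there were 6 higher and 0 lower, where 5.97% of all tested genes were higher and 3.14% lower. The median log2 difference was 0.13 against 0.019 over all tested genes. With voom CD36 alone of all listed genes was called (adjusted p = 0.0458). CD36, which carries fatty acids into cells, measured 13.8, 12.7 and 14.4 FPKM in controls and 29.9, 34.6 and 32.4 FPKM with vitamin E (adjusted p = 0.0656). Each group was tight, and the lowest vitamin E value was well above the highest control. DECR1, which prepares unsaturated fatty acids for oxidation, measured 26.7, 27.1 and 27.3 FPKM and 47.9, 41.6 and 42.3 FPKM (adjusted p = 0.249). PDK4, whose kinase spares glucose, measured 91.3, 117 and 55.3 FPKM and 234, 364 and 531 FPKM (adjusted p = 0.249). The remaining 3 genes at that level, named after their values were seen, were UCP3, ACSL1 and FABP4, with log2 differences of 2.02, 0.50 and 0.91.

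The lipase inhibitor gene ANGPTL4, picked from the list after its values were seen, averaged 3.44 ± 1.06 FPKM (SD, n = 3) in controls and 2.98 ± 0.553 in the vitamin E group. The targets with the smallest p among lower values were the fatty acid binding protein genes FABP3 and FABP1 and the lipid droplet coat gene PLIN2, with log2 differences of -0.31, -0.28 and -0.44 and adjusted p values of 0.710, 0.851 and 0.761. PLIN2 was at 50.9 FPKM in control replicate 1 and between 16.5 and 21.6 FPKM in the other 5 libraries, and its log2 difference turned to 0.025 without that control. That of FABP1 turned to 0.060 without it.

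**Figure D5:**
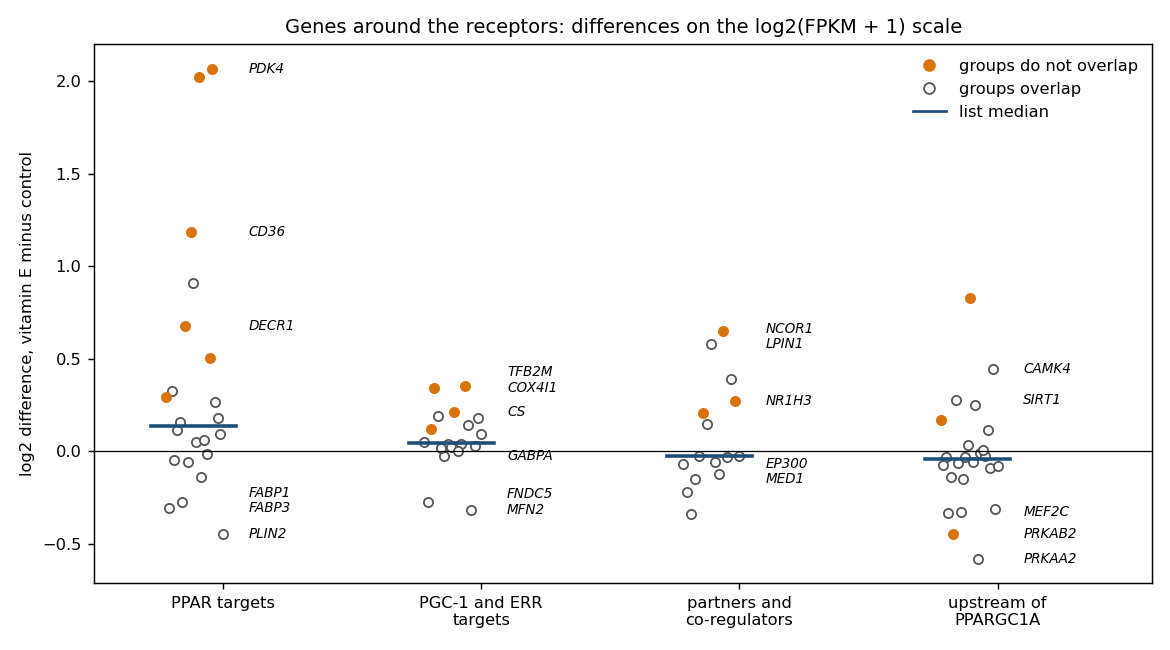
Log2 difference (y axis, vitamin E minus control, log2(FPKM + 1) scale) of each tested gene in 4 lists, with filled points where the groups do not overlap, open points where they do, a line at the list median and names beside some of the points. Among PPAR targets PDK4 (2.07), UCP3 (2.02) and CD36 (1.18) lie highest, and medians run from -0.045 for genes upstream of PPARGC1A to 0.13 for PPAR targets.

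Mitochondrial and vascular genes that PGC-1 and estrogen-related receptors control in mammals had log2 differences between -0.32 and 0.35. All 18 that were in the table, of 23 listed, were tested, with 0 called after adjustment and a median of 0.044. At an unadjusted p under 0.05 there were 2 higher and 0 lower, against 5.97% and 3.14% of all tested genes. COX4I1, a subunit of cytochrome c oxidase, measured 236, 271 and 284 FPKM in controls and 368, 338 and 300 FPKM with vitamin E (log2 difference 0.34, adjusted p = 0.510). TFB2M, a mitochondrial transcription factor, measured 8.37, 8.34 and 8.29 FPKM and 13.1, 10.7 and 9.22 FPKM (0.35, adjusted p = 0.522). Neither gene showed any overlap between the groups, nor did TFAM and the citrate synthase gene CS. That makes 4 of the 18 genes higher and 0 lower without overlap, against 8.86% and 5.72% of all tested genes. CS differed by 0.21 without passing the test. The mitochondrial fusion gene MFN2, the myokine precursor gene FNDC5 and the factor gene GABPA differed by -0.32, -0.28 and -0.023, none past it. The difference of FNDC5 turned to 0.060 without control replicate 1, and that of GABPA to 0.031 without control replicate 3.

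Among other partners and co-regulators 20 of 25 listed genes were in the table and 15 were tested, with 0 called after adjustment, 1 higher and 0 lower at an unadjusted p under 0.05 and a median of -0.026. The higher gene was NCOR1, a corepressor that holds PPARs and other receptors silent. It measured 10.1, 13.7 and 9.09 FPKM in controls and 14.6, 20.3 and 18.1 FPKM with vitamin E, without overlap (log2 difference 0.65 ± 0.18, SE; adjusted p = 0.385). Of the 15 tested genes, 3 were higher and 0 lower without overlap, against 8.86% and 5.72% of all tested genes. The PGC-1 partner gene LPIN1 and the oxysterol receptor gene NR1H3 differed by 0.58 and 0.27, and the coactivator genes MED1 and EP300 by -0.15 and -0.12. PPRC1, the remaining member of the PGC-1 family, averaged 2.80 ± 1.88 and 2.04 ± 0.272 FPKM (SD, n = 3; adjusted p = 0.859).

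Of the genes that act upstream of PPARGC1A in mammals, 24 of 28 listed were tested, with 0 called after adjustment and a median of -0.045. At an unadjusted p under 0.05 there were 2 higher and 2 lower, against 5.97% and 3.14% of all tested genes. The 2 lower genes encode subunits of the energy sensor AMPK, of which 7 were tested. PRKAB2 measured 107, 121 and 105 FPKM in controls and 71.3, 94.1 and 78.6 FPKM with vitamin E (-0.45, adjusted p = 0.417). PRKAA2, its muscle catalytic subunit, differed by -0.58 with overlapping groups (adjusted p = 0.495), while the other catalytic subunit gene, PRKAA1, averaged 5.36 ± 0.219 and 6.16 ± 0.383 FPKM. The remaining subunit genes PRKAB1, PRKAG1, PRKAG2 and PRKAG3 differed by -0.010, -0.31, -0.026 and -0.033 with overlapping groups. The kinase gene CAMK4, the deacetylase gene SIRT1 and the muscle transcription factor gene MEF2C differed by 0.44, 0.27 and -0.33 without passing.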

How the data were processed

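Libraries were made from oligo(dT)-selected, fragmented RNA and read on an Illumina instrument, per the labels' protocols. The authors deposited 1 table of FPKM per gene and library. The submitters' processing notes name TopHat2 2.0.12, while the sources used here give no counter, annotation, strand setting or genome build. Positions are those of the table, and chromosome names were given to its sequence records by matching gene symbols to a RefSeq gene table, where the records that hold the members had 99.3% or more of their symbols on 1 chromosome.

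Groups and replicate numbers came from source names and titles. limma 3.58.1 in R 4.3.3 was fitted to log2(FPKM + 1) with a trend on mean level. It covered the 11320 genes whose mean reached 1 FPKM, two-sided, with adjustment over all of them at 0.05. Whole reads were recovered from the FPKM steps for all 11320 genes, with whole lengths within a tolerance of 0.05 bases. The reads recovered over the whole deposited table, tested or not, made up 99.8% of each total. Recovered reads are the smallest whole numbers with such a length, so a gene whose reads share a factor could have more. In a self-test of this step, made with known reads, 99.2% of genes came back exactly. On simulated reads for this comparison, with 200 of 11320 genes changed, limma found 48% of the 2-fold and 80% of the 4-fold changes, and 8.57% of its calls were false.

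Members, lists and the rule for named genes were chosen with earlier results of these data known. The rule named every member, up to 3 genes per direction with the smallest p in each list, and the 3 closest profiles of the 2 most variable members. Genes were matched by the table's names only. The counts cover 3 genes named by the rule whose own values are not reported here. Alternatives were other pseudocounts, filters, scalings and variance models, a replicate block, voom, and leaving out each library. Figures were drawn with matplotlib 3.10.9.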

Additional observations from a re-analysis of the deposited data

How the results depend on the processing

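No member was called under any of the 18 alternatives. Over all genes 2 were called, CD36 and KCTD20, with a minimum mean of 5 FPKM and with voom on recovered reads, which makes 1 of the list genes (CD36, adjusted p = 0.0389 and 0.0458), against 0 in the other 16. Of 550 values of named genes under alternatives, 537 kept their direction and side of the threshold, 11 turned and 2, those of CD36, newly passed. PPARD kept an unadjusted p under 0.05 in all alternatives that tested it, with log2 differences from 0.34 to 0.43 without single libraries and from 0.36 to 0.51 otherwise. PPARGC1B ranged from 0.31 to 0.46 and from 0.32 to 0.69, and RXRA from -0.57 to -0.16 and from -0.40 to -0.37. The adjusted p over all alternatives ranged from 0.267 to 0.801 for PPARD, from 0.295 to 0.861 for PPARGC1B and from 0.537 to 0.891 for RXRA. The minimum of 5 FPKM left only RXRA among the members.

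Some signs turned. ESRRG, at 0.019 in the report, was -0.0042 after TMM-type scaling, -0.0047 after scaling by median ratios and -0.0092 after quantile normalization, and ranged from -0.18 to 0.17 without single libraries. PPARA ranged from -0.11 to 0.050 without single libraries and turned without vitamin E replicate 1. PLIN2 (-0.76 to 0.025), FABP1 (-0.64 to 0.060) and FNDC5 (-0.57 to 0.060), at -0.44, -0.28 and -0.28 with all libraries, turned without control replicate 1, so their differences rested on that library. GABPA (-0.066 to 0.031) turned without control replicate 3. The cause was not tested. At an unadjusted p under 0.05 the 79 tested list genes gave 11 higher and 2 lower, where 5.97% of all tested genes were higher and 3.14% lower. The list counts were 7 and 1 without control replicate 3, where all 11320 tested genes gave 442 higher and 413 lower. They were 8 and 5 without control replicate 2 (942 and 614 over all tested genes). With the replicate block they were 7 and 2 (659 and 384 over all tested genes). No scaling moved the median of all genes by more than 0.1.

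The sample labels give no pairing of same-numbered libraries. Their deviations from the group means correlated at -0.13, 0.15 and 0.012, and not every library correlated best with its own number. So few libraries cannot show whether same-numbered ones share a batch. With the replicate block as a term 0 genes were called, and 1043 had an unadjusted p under 0.05 against 1031 without it; that of RXRA was 0.0422. Depth limits RXRG most, where 6 to 51 reads per library bound what could be seen.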

Other observations

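Several nuclear receptors that share RXR partners or the PGC-1 coactivators were listed but stayed below a mean of 1 FPKM and were not tested. The vitamin D receptor gene VDR lay between 0.315 and 2.54 FPKM over the 6 libraries, the thyroid hormone receptor gene THRB between 0.0262 and 0.124, the bile acid receptor gene NR1H4 between 0 and 0.147 and the estrogen-related receptor gene ESRRB between 0.309 and 0.611. PRDM16, a PGC-1 partner in mammalian brown fat, lay between 0.270 and 0.456 FPKM.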
